A study of Mus musculus with 9 samples.

Results

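The genes described here encode the machines that move nucleosomes and the enzymes that add or remove methyl groups on histones, measured in RNA of cardiomyocyte nuclei from the postnatal mouse heart. They were taken by symbol from the deposited table, as the Smarc, Chd, Arid, Kdm, Kmt2, Setd, Setdb and Ezh families together with Bahcc1, without the sex-linked Kdm5c, Kdm5d and Kdm6a. Of 72 rows with such a symbol, 3 were these sex-linked genes and 5 (Smarca1, Chd3os, Smarca5-ps, Kdm4d and Arid3c) did not reach a normalized count of 10 in at least 3 of 9 libraries. This left 64 genes of 41128 in the table and of 13454 that reached that level, and none of the 64 lies on the X chromosome. Bahcc1 entered by its own name rather than with a family.

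The study asked how cardiomyocytes respond to cardiac stress soon after birth, in mice whose mitral valves fail. Nuclei carrying PCM-1, a protein at the nuclear envelope of cardiomyocytes, were sorted from the left ventricle of FVB mice at 12 days of age and their RNA was sequenced, with 1 library per mouse and 3 mice per group. The first group comprised cKO mice that were scored 1 for cardiac stress (S1 to S3), called stressed cKO mice in what follows, and the second unstressed cKO mice (U1 to U3). Both are Fstl1 KO/fl; Tie2-Cre, so that they carry 1 knockout allele of Fstl1, the gene of follistatin-like 1, in all cells and lose the other allele where Tie2-Cre acts, in endothelium, endocardium and cells derived from them. The deletion was thus not made in the cardiomyocytes that were sequenced. The third group comprised control mice (C1 to C3), wild type in the sample labels and Fstl1 WT/fl in the study's methods. The stress score was set by the weight of the heart relative to the body, U3 is called a heterozygous cKO in its title but not in its genotype entry, and the study's text gives the number of sequenced cKO mice in more than one way.

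In the nucleus, DNA is wound around histones, and remodellers of the SWI/SNF, ISWI and CHD families use ATP to slide or evict them. Methyl groups on histone tails mark active genes and enhancers when placed by KMT2 enzymes, and silenced genes when placed by the EZH subunit of polycomb complex PRC2. KDM enzymes remove such marks. In heart muscle these complexes are known for their part in chamber formation and in the change from fetal to adult gene programs after birth.

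The 9 libraries held 8262684 to 12698502 reads, and the 64 genes took 0.883 to 1.06% of the normalized counts in each. Fstl1 stood at 97.4, 145 and 123 normalized counts in stressed cKO mice, at 69.6, 98.6 and 125 in unstressed cKO mice and at 124, 102 and 95.0 in control mice, so the targeted gene overlapped between groups in these nuclei. Nppa, the cardiac stress gene, had 208, 29.9 and 51.5 normalized counts in stressed cKO mice, 17.1, 8.50 and 19.5 in unstressed cKO mice and 8.27, 109 and 28.5 in control mice, and C2 was above S2 and S3. Ribosomal RNA of mitochondria took 3.81% of the counts of S2 and 3.84% of those of U3, while the remaining 7 libraries had 0.941 to 1.15%. According to the study, unstressed cKO mice were male and control mice female, so sex and genotype cannot be told apart between these groups. Kdm5d on the Y chromosome was at 5.41 and 3.42 in S1 and S2 and at 841 in S3, and the library C1 had both Kdm5d (4.73) and the X-inactivation RNA Xist (787) low. The mouse numbers in the sample titles fell into 2 runs, run A with S1, S2, U1 to U3 and C1, and run B with S3, C2 and C3.

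The 64 genes were among the well detected ones. Their median over the 9 libraries was 643 normalized counts, against 86.0 for all genes tested. Their gene models are long, with a median of 8334 bases of exon against 4380. All 64 passed the minimum in all 9 libraries except Chd5 (8 libraries), Kdm8 (7) and Arid3a (6). They also varied less between mice than other genes did. The median SD on the log2 scale was 0.32 in stressed cKO mice, 0.20 in unstressed cKO mice and 0.25 in control mice, against 0.59, 0.46 and 0.50 over all genes tested. The part of the higher counts in this lower spread was not tested.

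Between genes, levels were set per kilobase of exon and averaged over the 9 libraries. The highest was Kmt2d, a KMT2 enzyme that places methyl marks at enhancers, with 581 normalized counts per kilobase. Smarcc2, a scaffold subunit of SWI/SNF, followed with 526, Kmt2a with 488 and Chd4, an ATPase of the NuRD complex, with 482. Smarca4, the SWI/SNF ATPase also known as BRG1, stood at 383, close to the 382 of the remodeller Chd7. Setd8, which methylates histone H4, had 365 and Kdm6b, which removes the polycomb methyl mark, 346. Other leading genes of their class were Setd2 (280), which marks transcribed gene bodies, Arid4a (164), Kdm2a (128) and Smarcal1 (107), a helicase of DNA repair. Smarcad1, the second of its class, had 17.5. The lowest were Arid3a with 3.54 and Chd5 with 2.09.

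**Figure D1:**
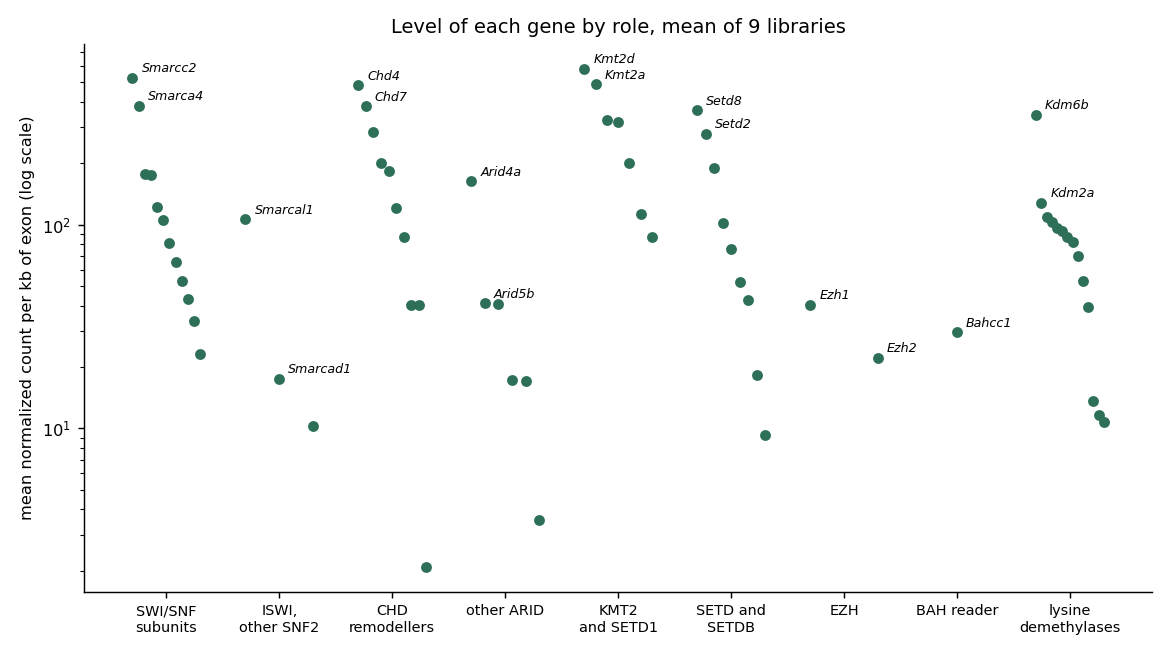
Each point is 1 gene, at its mean normalized count per kilobase of exon over 9 libraries (log scale), grouped by role and ordered by level within a role, with the 2 highest genes of each role named. The levels run between 581 for Kmt2d and 2.09 for Chd5, and a gene above 300 per kilobase is found among SWI/SNF subunits, CHD remodellers, KMT2, SETD and lysine demethylase genes.

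Related genes with shared function stood at unequal levels on this scale. Ezh1 and Ezh2, the alternative catalytic subunits of PRC2, averaged 40.5 and 22.2 normalized counts per kilobase. Smarca2 (BRM), the alternative to Smarca4 as the ATPase, averaged 65.3. Of the SMARCD subunits, Smarcd1 had 123, Smarcd3, known from the developing heart as BAF60c, 33.8 and Smarcd2 23.2. Chd3, the other NuRD ATPase, had 40.1. About 48.2% of the exon bases of Smarcd3 are shared with Chpf2 on the opposite strand and 51.8% of those of Setd1a with Gm49388 on the same strand, and since the sources used here do not say whether counting used strand, the levels of both are uncertain.

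The first comparison set stressed cKO mice against control mice. Most of the 64 genes lay close to 0. On the higher side, Bahcc1 and Arid5b stood apart from the rest. The BAH domain of Bahcc1 is known to read the polycomb methyl mark, and Arid5b is a DNA-binding partner of a histone demethylase. limma on log2(normalized count + 1) called 0 of the 64 genes at a Benjamini-Hochberg adjusted p of 0.05, and called 0.0% of the 13454 genes tested. At an unadjusted p of 0.05 it placed 4 of the 64 higher (Bahcc1, Arid5b, Ezh1 and Kmt2d) and 2 lower (Setd6 and Arid3a), against 4.38% and 3.29% of all genes tested. edgeR's quasi-likelihood test called 0 of the 64, with 0.0% of all genes. DESeq2, the tool of the study, called Bahcc1 and Arid5b, 2 of the 64, where it called 0.19% of the 15277 genes to which it gave an adjusted p. Bahcc1 was taken by its own name, and the genes were chosen with earlier results of these data known. The shares of the 64 given here and below are therefore a description and no test of the set.

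Bahcc1 (ENSMUSG00000039741.10) lies on chromosome 11 of mm10 from 120232947 to 120292296. It had 419, 1055 and 395 normalized counts in stressed cKO mice, 233, 230 and 231 in unstressed cKO mice and 193, 119 and 84.6 in control mice. The 3 groups did not overlap. The unstressed cKO mice, all of run A, had an SD of 1.64 normalized counts and were 0.26 above C1 of the same run on the log2 scale, while the lower control mice, C2 and C3, are of run B. The log2 fold change between stressed cKO mice and control mice was 2.15 (standard error, SE, 0.38, adjusted p = 0.0955 from limma, 0.17 from edgeR and 0.00066 from DESeq2). The means were 623 ± 374 and 132 ± 55.1 normalized counts (SD, n = 3 each), with S2 far above S1 and S3. Without S2 the DESeq2 adjusted p of Bahcc1 was 0.0573, and without C1 the limma adjusted p was 0.0468. Within mouse number run A the log2 difference was 1.78, with C1 as the only control mouse, and within run B it was 1.97, with S3 as the only cKO mouse.

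Arid5b (ENSMUSG00000019947.9) lies on chromosome 10 of mm10 from 68092520 to 68278740. It had 668, 774 and 749 normalized counts in stressed cKO mice, 479, 151 and 222 in unstressed cKO mice and 122, 230 and 329 in control mice. The 3 stressed mice were close to each other and above all 6 other mice, whose values overlapped between the groups. The log2 fold change against control mice was 1.79 (SE 0.39, adjusted p = 0.299 from limma, 0.358 from edgeR and 0.00354 from DESeq2). DESeq2 kept this call without each of the 6 libraries in turn, with a highest adjusted p of 0.0322 without S2. The log2 difference was 2.55 within run A and 1.44 within run B.

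In libraries of sorted nuclei, more nuclei of a cell type and more RNA per nucleus cannot be told apart. Beside the levels of Bahcc1 and Arid5b, the 7 endothelial and endocardial marker genes summed to 978, 1223 and 1035 normalized counts in stressed cKO mice, 1156, 824 and 795 in unstressed cKO mice and 818, 865 and 784 in control mice, none of the 7 being at 0 in any library. In this sum the stressed mice were above the control mice. Of the 7 genes, Cdh5 and Vwf were higher in all stressed than in all control mice, while Pecam1, Kdr, Tek, Tie1 and Emcn overlapped. The 7 fibroblast marker genes summed to 2972, 3158 and 1848 in stressed cKO mice, 2080, 2102 and 2654 in unstressed cKO mice and 1889, 2194 and 2184 in control mice. In this sum S1 and S2 were above the other 7 mice. Postn alone had this order, at 1126 and 1031 in S1 and S2 and at 405 to 678 in the other 7. Col1a1 was higher in all stressed than in all control mice, while Col3a1, Dcn, Pdgfra, Tcf21 and Fbn1 overlapped. The leukocyte marker genes summed to 71.8 to 112 in the stressed mice and to 124 to 248 in the other 6, with C1qa at 0 in 7 libraries. Of them, Cd68 was lower in the stressed mice than in the other 6, while Ptprc and Csf1r overlapped. The 5 cardiomyocyte marker genes summed to 2472303, 2264320 and 3777749 in stressed cKO mice. Their sums were 2732207, 2908530 and 2784467 in unstressed cKO mice and 2741412, 3552249 and 2654528 in control mice. S1 and S2 were thus below the other 7 mice here. Ttn and Ryr2 had this order, while Tnnt2, Actn2 and Myh6 did not. The 5 smooth muscle and pericyte marker genes summed to 2414, 3775 and 6101 in stressed cKO mice, 5518, 5864 and 7575 in unstressed cKO mice and 6193, 4805 and 4331 in control mice, so that S1 and S2 were below the other 7 mice. Of these genes Acta2 alone had this order, at 837 and 2378 in S1 and S2 and at 3477 to 6274 in the other 7. Myh11, Pdgfrb, Rgs5 and Cspg4 did not, and Cspg4 was highest in S1 (1300). The part of other cells in the differences of Bahcc1 and Arid5b was not tested.

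**Figure D2:**
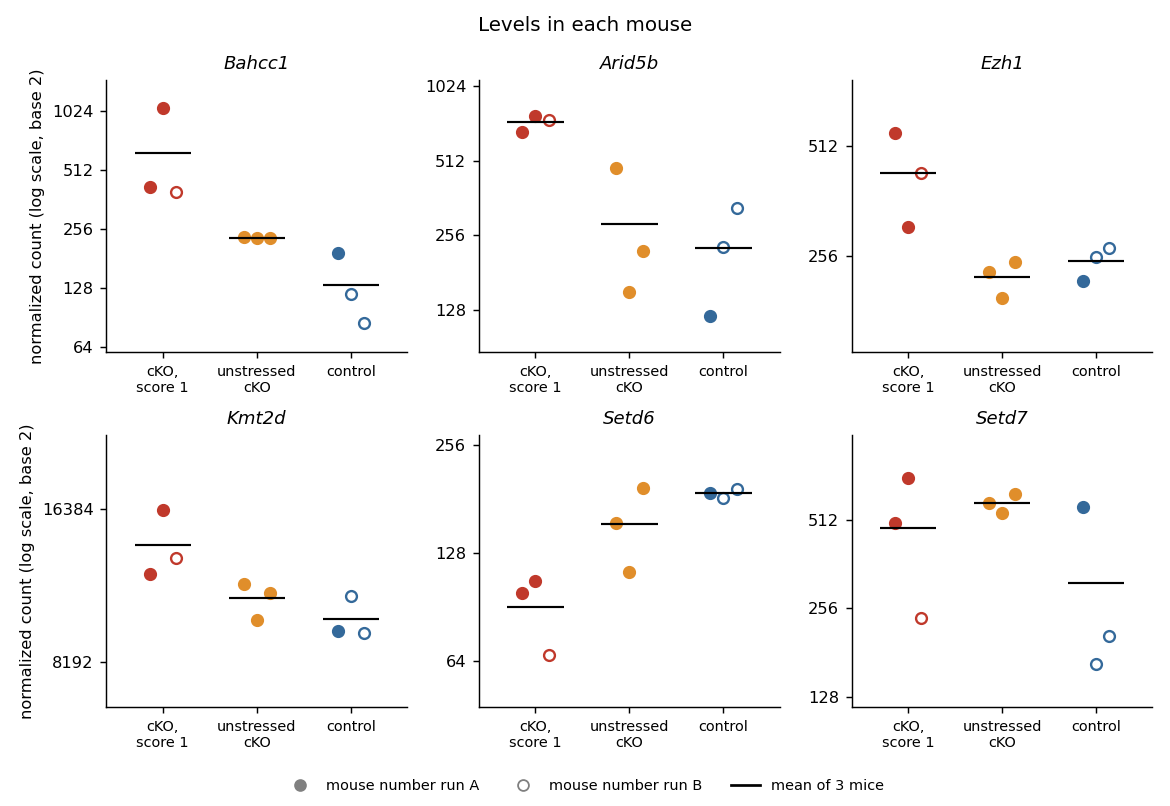
Normalized counts (log scale to base 2) of 6 genes in stressed cKO mice, unstressed cKO mice and control mice, with 1 point per mouse, filled for mouse number run A and open for run B, and a bar at the mean of 3 mice. Bahcc1, Arid5b and Ezh1 of the stressed mice lie above all other mice, and Setd7 lies at 499 to 709 in the 6 mice of run A, against 165 to 238 in the 3 mice of run B.

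For these 2 genes and for Ezh1, the 250 bases before the RefSeq start of the gene are shown because their content of CG dinucleotides differed. The sequences are from RefSeq (GRCm38.p6), written 5′ to 3′ on the strand of the gene, with CG dinucleotides in capitals. Bahcc1 is at chr11:120232697-120232946 on the plus strand, Arid5b at chr10:68278727-68278976 on the minus strand and Ezh1 at chr11:101226464-101226713 on the minus strand. The last 14 bases of the Arid5b window lie inside the GENCODE gene model.
Bahcc1: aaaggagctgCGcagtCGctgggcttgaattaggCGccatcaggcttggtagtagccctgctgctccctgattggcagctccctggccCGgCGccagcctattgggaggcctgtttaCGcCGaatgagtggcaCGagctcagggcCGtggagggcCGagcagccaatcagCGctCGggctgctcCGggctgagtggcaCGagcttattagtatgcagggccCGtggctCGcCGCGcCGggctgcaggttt
Arid5b: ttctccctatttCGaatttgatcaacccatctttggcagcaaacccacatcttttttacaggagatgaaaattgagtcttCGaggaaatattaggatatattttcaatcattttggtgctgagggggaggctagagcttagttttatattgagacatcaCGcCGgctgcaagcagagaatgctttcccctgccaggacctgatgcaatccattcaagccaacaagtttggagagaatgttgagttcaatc
Ezh1: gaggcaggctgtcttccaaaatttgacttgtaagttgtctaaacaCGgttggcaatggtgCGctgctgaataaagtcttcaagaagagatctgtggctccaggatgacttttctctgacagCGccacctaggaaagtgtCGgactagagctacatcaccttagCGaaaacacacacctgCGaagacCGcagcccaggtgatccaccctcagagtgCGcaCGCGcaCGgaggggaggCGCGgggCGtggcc
Bahcc1 holds 19 CG dinucleotides, Ezh1 14 and Arid5b 4, and their GC content is 65.2%, 55.2% and 42.0%. Such a promoter was found for 47 of the 64 genes and for 9352 of all genes tested, with a median of 21 and 16 CG dinucleotides. At least 10 were found in 85.1% of the 47 and in 74.2% of all. Short motifs were searched on both strands, none of which holds another. CCAAT was found in 34.0% of the 47 and 35.7% of all, Bahcc1 included. TATAAA was found in 4.26% and 6.36%, in Arid5b and Smarcd2 of the 47. CCGGAAGT was found in 2.13% and 6.05%. CACGTG and TGACGTCA were found in 0 of the 47, against 8.50% and 2.85% of all. A match to these letters is a description of the window and not a binding site.

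The KMT2 and SETD1 families are known for enzymes that place methyl marks on active genes. All 7 of their genes had log2 fold changes above 0 in stressed cKO against control mice, as did 49.3% of all genes tested. Their median was 0.19, against -0.01 over all genes tested. With 1 library left out, the lowest value was -0.032 for Setd1a (without S1), -0.11 for Setd1b (without S3) and -0.057 for Kmt2c (without C1), and the other 4 were above 0 without each library. Setd2, which also marks active genes, had a log2 fold change of -0.25. None of the 7 was called by any of the 3 tools. Kmt2d (chromosome 15) had 12224, 16345 and 13099 normalized counts in stressed cKO mice, 11672, 9892 and 11201 in unstressed cKO mice and 9437, 11052 and 9330 in control mice. All 3 stressed mice were above all 6 others. Its log2 fold change against control mice was 0.48 (SE 0.18, adjusted p = 0.58 from limma). Kmt2b, its relative, had 2594, 2054 and 1908 normalized counts in stressed cKO mice and 1654, 1676 and 1545 in control mice, which did not overlap (log2 fold change 0.42, SE 0.20, limma adjusted p = 0.653). The unstressed cKO mice, with 1717, 2143 and 2083, overlapped with the stressed ones.

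Of the 2 polycomb enzymes, Ezh1 (chromosome 11), the form of resting cells, had 554, 308 and 433 normalized counts in stressed cKO mice, 232, 196 and 247 in unstressed cKO mice and 219, 255 and 270 in control mice. All 3 stressed mice were above the 6 others. The log2 fold change against control mice was 0.76 (SE 0.30, adjusted p = 0.58 from limma and 0.42 from DESeq2). Ezh2, the form of dividing cells, had 125, 162 and 91.8 normalized counts in stressed cKO mice, 167, 112 and 208 in unstressed cKO mice and 178, 112 and 178 in control mice, which overlapped. The ratio of Ezh1 to Ezh2 per kilobase of exon, formed after their values had been seen and therefore given with no test, was 3.96, 1.71 and 4.23 in stressed cKO mice, 1.25, 1.57 and 1.07 in unstressed cKO mice and 1.10, 2.04 and 1.36 in control mice. S2 was below C2 in this ratio.

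**Figure D3:**
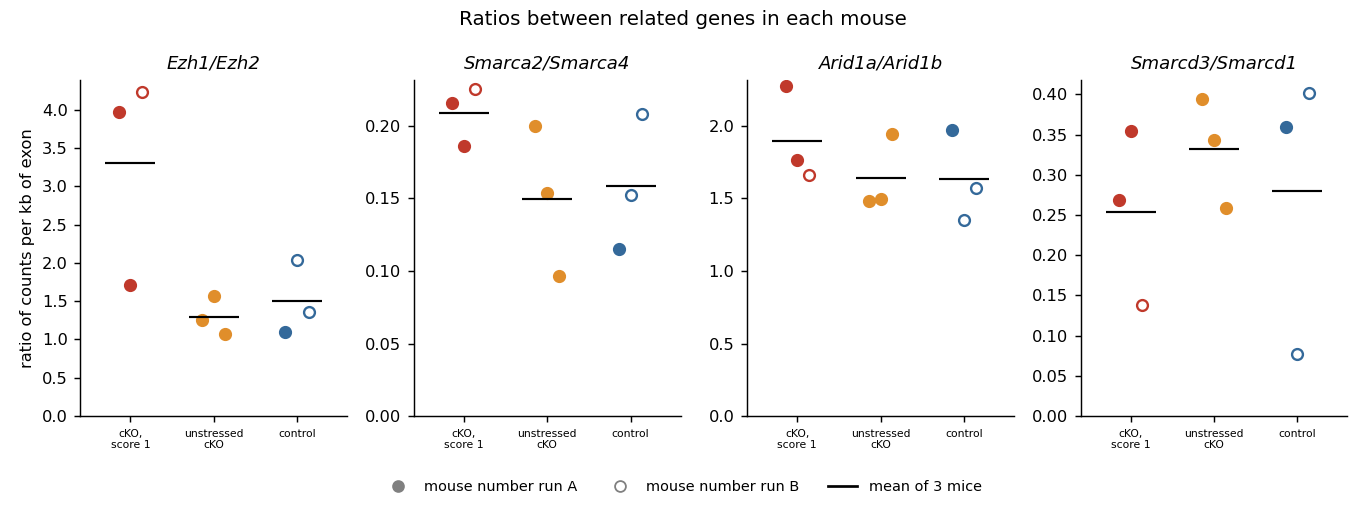
Ratios of normalized counts per kilobase of exon between related genes, with 1 point per mouse, filled for mouse number run A and open for run B, and a bar at the mean of 3 mice. The ratio of Ezh1 to Ezh2 is above 3 in S1 and S3 and at most 2.04 in the other 7 mice, while the ratios of Smarca2 to Smarca4, of Arid1a to Arid1b and of Smarcd3 to Smarcd1 overlap between the groups.

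At the lower end, Setd6 (chromosome 8), a methyltransferase known for acting on proteins other than histones, had 99.2, 107 and 66.5 normalized counts in stressed cKO mice, 155, 113 and 195 in unstressed cKO mice and 189, 182 and 193 in control mice. The stressed mice were below all others, U2 by a small margin. Its log2 fold change against control mice was -1.07 (SE 0.37, adjusted p = 0.553 from limma and 0.327 from DESeq2). Arid3a, a DNA-binding ARID protein, was near the limit of detection, with 9.92, 6.84 and 0.937 normalized counts in stressed cKO mice, 11.4, 54.4 and 24.0 in unstressed cKO mice and 13.0, 41.3 and 15.2 in control mice. The log2 fold change of stressed against control mice was -1.95 (SE 0.93, limma adjusted p = 0.65). Smarcd2, a SWI/SNF subunit, had 37.0, 40.2 and 108 normalized counts in stressed cKO mice and 134, 103 and 96.9 in control mice, so that S3 lay among the control mice (limma adjusted p = 0.659). Chd6 showed a log2 fold change of -0.37 (SE 0.22, limma adjusted p = 0.75) and Smarcal1 one of -0.37 (SE 0.27, limma adjusted p = 0.798), and in both the groups overlapped.

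Over the 64 genes, 37 had a log2 fold change above 0, which is 57.8%, against 49.3% of all genes tested. Their median was 0.05, against -0.01 over all genes. The 3342 genes with at least 6859 bases of exon, which hold 40 of the 64, had a median of 0.035. The part of gene length was not tested. The groups did not overlap in 6 genes that were higher in stressed mice (Arid1a, Arid5b, Bahcc1, Ezh1, Kmt2b and Kmt2d) and in 2 that were lower (Arid3a and Setd6), 9.38% and 3.13% of the 64, against 5.8% and 5.28% of all genes tested. The class medians were 0.02 for the 12 SWI/SNF subunits, -0.04 for the 10 CHD remodellers, -0.37 for the 3 ISWI and other SNF2 ATPases, 0.01 for the 6 other ARID proteins, 0.05 for the 9 SETD and SETDB genes and 0.15 for the 14 lysine demethylases. Arid1a, the largest subunit of the SWI/SNF form known as BAF, had 2444, 2163 and 2644 normalized counts in stressed cKO mice, 1949, 1706 and 1789 in unstressed cKO mice and 1842, 1905 and 1909 in control mice. The stressed mice were above the 6 others. The SWI/SNF ATPase Smarca4 had 2041, 2467 and 2653 normalized counts in stressed cKO mice, 2623, 2185 and 2873 in unstressed cKO mice and 2513, 2769 and 2213 in control mice, and the groups overlapped. Smarcd1 varied little in the stressed mice, at 485, 491 and 493, within the 381 to 642 of the control mice.

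**Figure D4:**
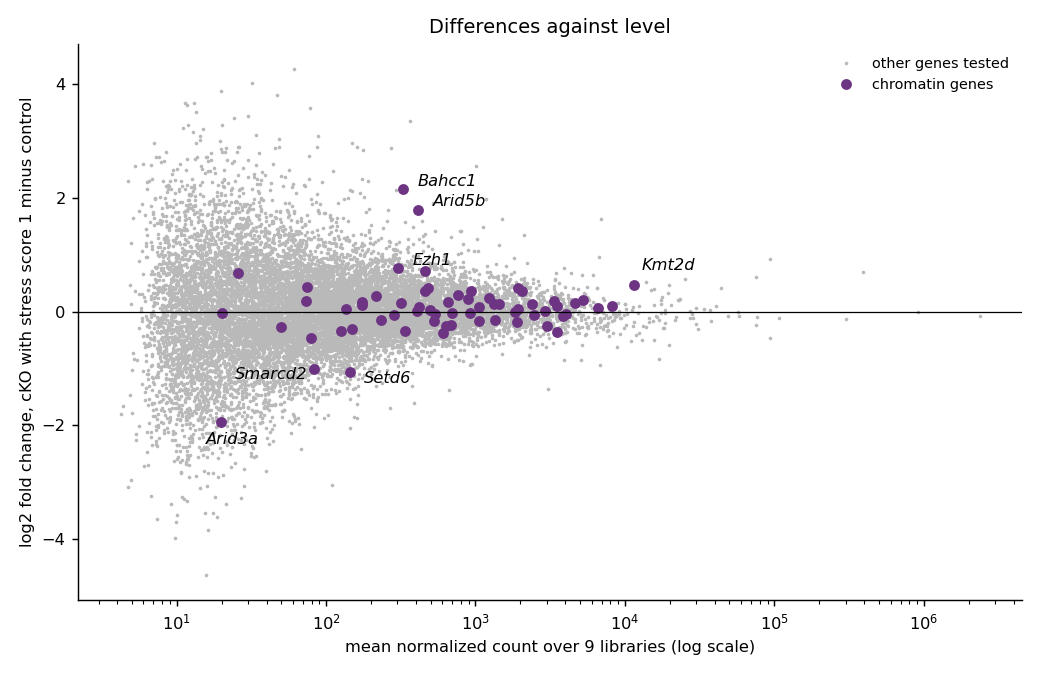
Log2 fold change on the log2(normalized count + 1) scale between stressed cKO mice and control mice, against the mean normalized count over 9 libraries (log scale), for the 64 chromatin genes (large points) and all other genes tested (small points). Bahcc1 at 2.15 and Arid5b at 1.79 lie above the other 62, and Arid3a at -1.95 lies among genes of low count.

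**Figure D5:**
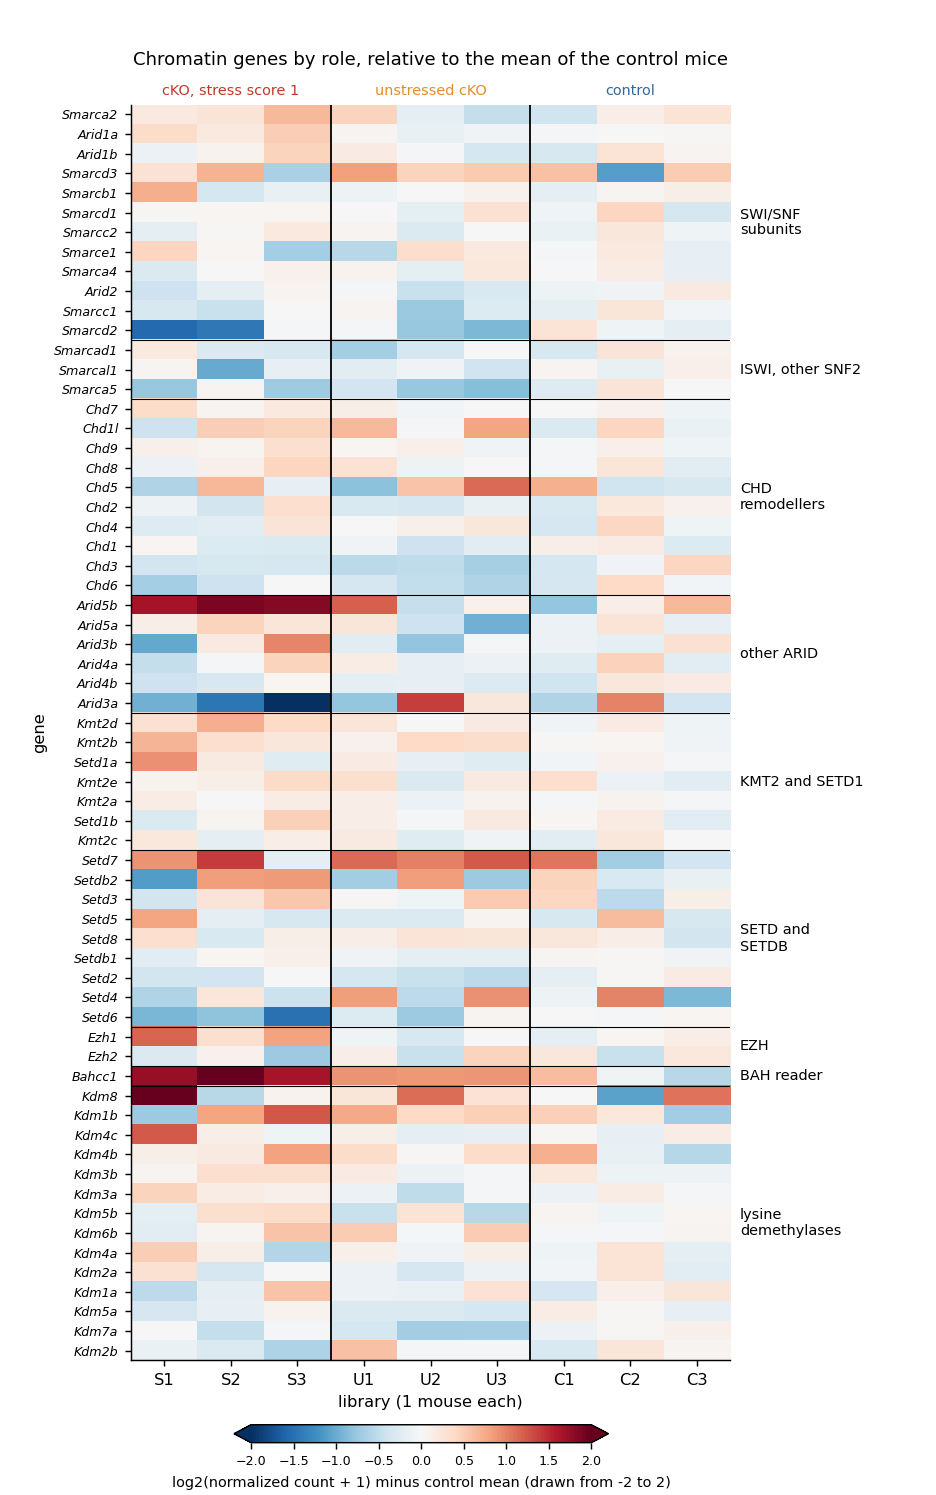
Each cell is log2(normalized count + 1) of 1 gene in 1 mouse minus the mean of the 3 control mice, drawn between -2 and 2, with genes grouped by role and ordered within a role by the log2 fold change between stressed cKO mice and control mice. Arid5b and Bahcc1 are the rows that are dark in S1, S2 and S3, Bahcc1 is also above the control mean in U1, U2 and U3, and Setd7 follows the mouse number runs.

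Set against all 6 other mice, the stressed mice differed in the same 2 genes by DESeq2. It called Bahcc1 (log2 fold change 1.78, adjusted p = 0.00349) and Arid5b (1.52, adjusted p = 0.0128), 2 of the 64, where it called 0.388% of all genes to which it gave an adjusted p. Here too, Bahcc1 was among the 64 by its own name, so the share is a description. This comparison shares the stressed mice and the control mice with the first, so it is not a second source of evidence. Without S2 both adjusted p values passed the threshold upward, to 0.12 for Bahcc1 and 0.0536 for Arid5b, and DESeq2 then called Ezh1 alone (adjusted p = 0.0158, against 0.0579 with S2). limma called 0 of the 64, with 0.00743% of all genes, and so did edgeR, with 0.00743%. In limma the log2 fold change was 1.71 for Bahcc1 (SE 0.37, adjusted p = 0.156) and 1.66 for Arid5b (SE 0.34, adjusted p = 0.139). limma called Arid5b without U1 (adjusted p = 0.0388) and Bahcc1 with the mouse number run as a covariate (adjusted p = 0.0401).

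At an unadjusted p of 0.05, limma placed 5 of the 64 higher in the stressed mice (Arid1a, Arid5b, Bahcc1, Ezh1 and Kmt2d) and 2 lower (Arid3a and Setd6), against 4.01% and 4.07% of all genes. The same 5 and 2 genes were those whose values in the stressed mice did not overlap with the 6 others, 7.81% and 3.13% of the 64, against 1.72% and 1.75% of all genes tested. Ezh1 showed a log2 fold change of 0.83 (SE 0.25, limma adjusted p = 0.425), Kmt2d of 0.41 (SE 0.16, limma adjusted p = 0.544) and Arid1a of 0.38 (SE 0.16, limma adjusted p = 0.569). Setd6 had -0.91 (SE 0.31, limma adjusted p = 0.464) and Arid3a -2.09 (SE 0.78, limma adjusted p = 0.525). Smarcd2 (-0.72, SE 0.43), Kdm2b (-0.43, SE 0.32) and Smarcal1 (-0.25, SE 0.24) had limma adjusted p values of 0.682, 0.762 and 0.828. The median over the 64 was 0.06, against -0.01 over all genes, with 39 above 0 (60.9%, against 49.0%). It was 0.059 over the 3342 genes with at least 6859 bases of exon.

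Between the stressed and the unstressed cKO mice, which share their genotype, all 3 tools called 0 of the 64 genes. The study gives the sex of the stressed mice nowhere in the text used here. Xist had 57783, 40325 and 185 normalized counts in stressed cKO mice and 347, 577 and 276 in unstressed cKO mice. Kdm5d was at 5.41, 3.42 and 841 in the stressed mice and at 893, 705 and 835 in the unstressed ones. By these 2 genes S1 and S2 had the female pattern, and S3 had the male pattern of the unstressed mice. The stressed group thus held both patterns. The part of sex was not tested, here or in the comparison of stressed with control mice. limma and edgeR called 0.0% of all genes tested and DESeq2 0.178%. At an unadjusted p of 0.05, limma placed Arid1a, Arid5b, Bahcc1 and Ezh1 higher and Arid3a lower, 4 and 1 of the 64, against 3.08% and 3.26% of all genes. Arid5b showed a log2 fold change of 1.53 (SE 0.39, adjusted p = 0.557 from limma and 0.0806 from DESeq2) and Bahcc1 of 1.27 (SE 0.38, adjusted p = 0.729 from limma and 0.0638 from DESeq2). Ezh1 had 0.90 (SE 0.30, limma adjusted p = 0.729), Arid1a 0.41 (SE 0.19, limma adjusted p = 0.779) and Arid3a -2.23 (SE 0.93, limma adjusted p = 0.752). Of the other genes on the lower side, Setd6 had -0.75 (SE 0.37), Kdm2b -0.52 (SE 0.38), Setd4 -0.68 (SE 0.62) and Smarcd3 -0.48 (SE 0.45), with limma adjusted p values of 0.781 to 0.90.

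The groups of cKO mice did not overlap in 7 genes that were higher in the stressed mice (Arid1a, Arid5b, Bahcc1, Chd3, Ezh1, Kdm3a and Kmt2d) and in 3 that were lower (Arid3a, Kdm2b and Setd6), against 5.31% and 6.04% of all genes tested. Kdm3a, which removes a repressive methyl mark, had 1197, 969 and 939 normalized counts in stressed cKO mice and 807, 619 and 854 in unstressed cKO mice, and the control mice, with 809, 977 and 857, overlapped with the stressed ones. Kdm2b, a demethylase that binds CpG islands, had 116, 105 and 83.4 in stressed cKO mice and 193, 126 and 126 in unstressed cKO mice. The control mice, with 104, 152 and 133 for Kdm2b, overlapped with the stressed ones. Chd3 had 312, 327 and 324 normalized counts in stressed cKO mice, and 282, 287 and 256 in unstressed cKO mice. Its control mice, at 319, 388 and 552, were higher than the unstressed ones. The median over the 64 genes was 0.11, against -0.01 over all genes, with 41 above 0 (64.1%, against 48.8%). The 3342 genes with at least 6859 bases of exon, which hold 40 of the 64, had a median of 0.089 in this comparison, and the part of gene length was not tested.

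The comparison of unstressed cKO mice with control mice addressed the genotype without stress. limma, edgeR and DESeq2 each called 0 of the 64 genes, where they called 0.0%, 0.0% and 0.0599% of all genes. At an unadjusted p of 0.05, limma placed Setd7 and Bahcc1 higher and Kdm7a, Setd2 and Chd6 lower, 2 and 3 of the 64, against 2.43% and 1.74% of all genes tested. Bahcc1 showed a log2 fold change of 0.88 (SE 0.38, limma adjusted p above 0.99), which was 0.26 within run A, with C1 as the only control mouse. The groups did not overlap in 2 genes that were higher (Bahcc1 and Kmt2b) and 5 that were lower (Chd3, Kdm5a, Kdm7a, Setd2 and Smarca5), against 5.19% and 5.36% of all genes. Sex differs between these groups according to the study and cannot be told apart from genotype.

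Of the genes that were lower, Setd2 had 2712, 2669 and 3477 normalized counts in stressed cKO mice, 2732, 2549 and 2433 in unstressed cKO mice and 3060, 3542 and 3891 in control mice. The stressed mice were spread over the ranges of both other groups. Kdm7a, which removes repressive methyl marks, had 620, 444 and 600 normalized counts in stressed cKO mice, 486, 381 and 384 in unstressed cKO mice and 567, 628 and 663 in control mice. Of the stressed mice, S1 and S3 lay among the control mice. Their log2 fold changes in unstressed cKO mice were -0.44 (SE 0.19) and -0.58 (SE 0.25). The chromatin remodeller Chd6 had one of -0.48 (SE 0.22), Chd3 of -0.57 (SE 0.28) and Smarca5, the ISWI ATPase, of -0.66 (SE 0.44), none with a limma adjusted p below 0.99. Within run A, against C1 alone, these differences were smaller, at -0.14 for Chd6, -0.22 for Chd3, -0.41 for Smarca5, -0.25 for Setd2 and -0.45 for Kdm7a. The polycomb demethylase Kdm6b had 3028, 2072 and 3032 normalized counts in unstressed cKO mice and 2082, 2088 and 2193 in control mice, with U2 below all control mice (log2 fold change 0.33, SE 0.22). The median over the 64 was -0.02, against 0.01 over all genes, with 30 above 0 (46.9%, against 51.0%). It was -0.039 over the 3342 genes with at least 6859 bases of exon.

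Setd7 (chromosome 3), a methyltransferase of histone H3 and of other proteins, split by mouse number run rather than by group. It had 499 and 709 (S1 and S2, run A) and 238 (S3, run B) normalized counts in stressed cKO mice. It had 587, 539 and 628 in unstressed cKO mice, which are all of run A, and 566 (C1, run A), 165 and 206 (C2 and C3, run B) in control mice. The log2 fold change of 1.12 between unstressed cKO and control mice (SE 0.41, limma adjusted p above 0.99) was 0.04 within run A, where C1 is the only control mouse. In a limma fit of group and run, added after these values had been seen, the difference of run A minus run B was 1.47 for Setd7 (SE 0.27, adjusted p = 0.168), the smallest p of the 64 genes. The term called 1 of 13454 genes and 0 of the 64, and 9 of the 64 had an unadjusted p below 0.05, against 8.5% of all genes. Among the 9 were Bahcc1, with a difference of 0.84 (SE 0.36, limma adjusted p = 0.533), and Chd6, with one of -0.53 (SE 0.19, limma adjusted p = 0.455). The sources used here say nothing of litter or handling of the runs.

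Over the 9 libraries, the genes whose log2 values followed Bahcc1 most closely outside the 64 were AI118078 (Pearson's r = 0.977), Mef2c (0.94), a transcription factor of heart muscle, and 4931406C07Rik (0.925). Mef2c had 397, 615 and 440 normalized counts in stressed cKO mice, 320, 310 and 338 in unstressed cKO mice and 308, 214 and 273 in control mice. The stressed mice were above the others, with S2 the highest as for Bahcc1. Of the 64 genes, Kmt2d was the most alike (0.878) and Smarcal1 the most opposite (-0.714), with 712, 342 and 614 normalized counts in stressed cKO mice and S2 the lowest of all 9 libraries. These values rank 13454 genes over the same 9 libraries, which share their groups, and are a description.

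No partner of these enzymes passed a test. Of 85 other chromatin genes tested (SWI/SNF, NuRD, PRC2 and COMPASS partners, the INO80 family, further JmjC proteins and lysine methyltransferases), all 3 tools called 0 in every comparison. Between stressed cKO mice and control mice, limma placed 3 higher (Cecr2, Gltscr1l and Hr) and 2 lower (Suv420h1 and Jmjd8) at an unadjusted p of 0.05, against the 4.38% and 3.29% of all genes. These groups did not overlap in 3 that were higher (Cecr2, Gltscr1l and Hr). They did not overlap in 9 that were lower (Bcl7c, Jmjd6, Jmjd8, Mbd3, Nsd1, Rbbp4, Smyd5, Suv39h1 and Suv420h1). The shares were 3.53% and 10.6% of the 85, against 5.8% and 5.28% of all genes tested. Cecr2, a partner of ISWI, had 1756, 1649 and 1244 normalized counts in stressed cKO mice, 1348, 913 and 1084 in unstressed cKO mice and 738, 876 and 1069 in control mice. Gltscr1l, a SWI/SNF subunit, had 672, 600 and 616 in stressed cKO mice, 496, 452 and 523 in unstressed cKO mice and 408, 327 and 354 in control mice, and the 3 groups did not overlap. Suv420h1, which methylates histone H4, had 549, 709 and 901 in stressed cKO mice, 760, 596 and 642 in unstressed cKO mice and 1102, 1226 and 1043 in control mice, so that all cKO mice were below all control mice. The limma adjusted p values against control mice in the stressed group were 0.474 for Cecr2 and Gltscr1l and 0.576 for Suv420h1.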

How the data were processed

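The authors sequenced RNA of sorted nuclei with single-end reads of 50 bases, mapped them to mm10 with STAR and used DESeq2. Annotation, counting program, strand and versions were not given in the sources used here. As deposited, a value is a signal: the reads of a gene over the size factor of its library. In every library 100% of the deposited values above 0 were whole multiples of 1 read (tolerance 0.001), which gave back the counts used by DESeq2 and edgeR. No column was left out.

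The genes and lists were chosen with earlier results of these data known. limma 3.58.1 in R 4.3.3 tested log2(normalized count + 1), a scale that understates changes of low counts, with a variance trend, two-sided, over the 13454 genes that reached a normalized count of 10 in 3 or more libraries. All 3 groups entered 1 fit with 6 residual degrees of freedom, and the stressed mice against the 6 others another with 7. DESeq2 1.42.0 used the deposited size factors and its default filtering of low counts, a setting chosen after its counts of calls had been seen. edgeR 4.0.16 used TMM. The limma fit of stressed against control mice was tried on simulated data, while the DESeq2 and edgeR fits were not. Exon lengths and positions came from GENCODE M21 (mm10). p-values measure the spread between these mice, taken as separate animals from the labels.

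Genes named are Bahcc1 and 12 others fixed by symbol, those called by any tool, the 5 smallest limma p values per direction and comparison, the 2 highest per kilobase in each class and the 3 most like Bahcc1. Genes named as not overlapping were chosen after their values were seen, as were the ratios, promoters, motifs and split by exon length. Alternatives were another pseudocount, filter, scaling, fit and tool, a covariate for mouse number run, and each library left out.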

Additional observations from a re-analysis of the deposited data

How the results depend on the processing

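No paired analysis was possible because the labels give the groups no shared replicate numbers. Depth was 8262684 to 12698502 reads and limits mainly Arid3a, Chd5 and Kdm8. Among 40 pairs of a named gene and a comparison, 608 of 617 alternative values kept direction and side of the threshold. limma called 0 of the 64 in every main comparison, so each pair began as not called and could not lose a call. Keeping the side of the threshold therefore means staying uncalled. The DESeq2 fits without 1 library, in some of which a call was lost, are not among the 617. Another 7 values passed the threshold and became called, and 2 reversed. The reversed ones were Smarcd3 in unstressed cKO against control mice with the run covariate (-0.085) and Smarcal1 in stressed against the 6 other mice without S2 (0.063, with -0.46 to 0.063 over the libraries left out). No median over the 64 genes moved by more than 1 SD between mice, and 5 of 62 changed sign.

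For stressed against control mice, limma called 0 genes, 1 with only the compared groups, 29 by DESeq2 and 0 to 3 without 1 library. Of the 64 it called 0, DESeq2 2, and limma 0 to 1 without 1 library. For unstressed cKO against control mice, calls were 0, with 3 after quantile normalization, 4 with only the compared groups, 4 with the run covariate and 9 by DESeq2. Between cKO groups they were 0, 27 by DESeq2 and 0 to 6 without 1 library. For stressed against the 6 other mice, 1 gene was called, with 0 for a pseudocount of 0.5, no filter, TMM or quantile normalization, 4 with the run covariate, 58 by DESeq2 and 0 to 3 without 1 library. Of the 64, the run covariate gave 1, DESeq2 2 and leaving out 1 library 0 to 1.

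Further DESeq2 fits were chosen after seeing the data. Against control mice its 29 calls were 153 with the run covariate and 27 to 99 without 1 library (45 without C1, 99 without S3), and its 2 calls among the 64 were 1 to 2 without 1 library. Against the 6 others its 58 calls were 47 to 135 (95 without U1, 123 without S2, 135 without S3), and 1 to 2 of the 64. With filtering at 0.05 the 9 calls between unstressed cKO and control mice were 14. The cause of these shifts was not tested.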
